A study of Homo sapiens with 6 samples.

Results

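The apelin receptor gene APLNR (ENSG00000134817) and the gene of its ligand apelin, APLN (ENSG00000171388), were described across human embryonic stem cells in 2 states of pluripotency. They are 2 of the 63677 genes of the deposited count table. They were chosen by the counts of APLNR, which were much higher in naive than in primed cells of these same libraries, with APLN added as the gene of the ligand. The naive-to-primed difference of both genes is therefore given as a description, with no test. Both passed the filter on low counts. The 2 embryonic stem cell lines were RH6 (Royan H6) and RH5 (Royan H5). Naive cells, a state that resembles the embryo before implantation, had been induced with 2a2iL and were kept in 2iL medium. They gave 2 libraries from RH6 at passage 10 and 2 from RH5 at passage 17. Primed cells, the usual state of such lines, were kept in medium with bFGF and gave 1 library from RH6 at passage 20 and 1 from RH5 at passage 16. All cells grew on inactivated mouse embryonic fibroblasts. The medium changed with the state, so their effects cannot be told apart, and in RH6 the states also differed widely in passage. Nothing in the labels says whether the naive duplicates were separate cultures. The p-values therefore reflect spread among libraries alone, and that spread may be technical.

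Apelin and Elabela (also called Toddler) are secreted peptides that bind the same receptor, APLNR, a membrane receptor that couples to inhibitory G proteins and recruits beta-arrestin. In vertebrate embryos Elabela, encoded by APELA, acts through this receptor in the movement of mesendoderm during gastrulation, and apelin acts later, in growing blood vessels and the heart. APLNR is used as a surface marker of early mesoderm when pluripotent cells differentiate, and APELA is known to be made by undifferentiated human embryonic stem cells.

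The libraries held 13457979 to 14663982 counts. The shared pluripotency factor gene POU5F1 stood at 343.1 to 504.5 CPM (counts scaled to library size, with TMM factors) in naive libraries and at 310.4 and 387.8 CPM in primed RH6 and primed RH5. Of 9 tested genes of naive pluripotency, 6 were called higher in naive cells, including DNMT3L at a log2 fold change of 5.61 ± 0.27 (SE), but KLF4 and TFCP2L1 were not called, and KLF17 had 0, 2, 13 and 18 counts in the naive libraries and 0 in primed ones, at least 5.7-fold higher (floor of 3 counts over the primed group). The KLF17 call was lost without the line term (edgeR adjusted p = 0.1575), with DESeq2 (adjusted p = 0.0550) and limma-voom (adjusted p = 0.0737), without naive RH6 replicate 2 (edgeR adjusted p = 0.0534) and without primed RH5 (edgeR adjusted p = 0.4118). The naive marker genes DPPA5, ARGFX and KHDC1L had 1 to 5 counts over all 6 libraries. Of 9 tested genes of primed pluripotency, 8 fell in naive cells and 0 rose, with a median log2 fold change of -1.37, and of 10 shared pluripotency genes 6 fell and 0 rose, with a median of -0.56, though 3 rose without primed RH5. The median of the naive list was 1.70. Its summed level was 182.3 and 190.8 CPM in naive RH6 and 242.9 and 260.2 CPM in naive RH5. It was 70.4 CPM in primed RH6 and 209.5 CPM in primed RH5, so the states overlapped. After the duplicates were added together within each line, which leaves fewer samples, 2 genes of the naive list were called higher. In that fit 4 genes of the primed list and 2 of the shared list were called lower. Here and below a gene was called, or is said to have risen or fallen, at a Benjamini-Hochberg adjusted p under 0.05 in edgeR's quasi-likelihood test over 19434 genes, which called 25.7% of them in naive against primed. It called 12.1% higher and 13.6% lower, the shares to set beside the count of each list.

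APLNR was abundant in naive cells and close to absent in primed cells of both lines. It had 1254 and 874 counts in the naive RH6 libraries, or 87.9 and 64.3 CPM. The naive RH5 libraries had 789 and 619 counts, or 55.8 and 46.2 CPM. Primed RH6 had 10 counts, or 0.671 CPM, and primed RH5 had 15 counts, or 1.09 CPM. Every naive library lay far above both primed libraries, while the primed values had exact Poisson intervals of 0.322 to 1.23 and 0.608 to 1.79 CPM (95%, counting error only) that overlapped each other. Over all libraries the mean was 63.6 ± 17.8 CPM (SD, n = 4) in naive cells against 0.879 CPM in primed cells. By summed counts APLNR was 73.3-fold higher in naive cells, with a counting interval of 49.6 to 113.5. Its fitted log2 fold change was 6.15 ± 0.34 (SE), 6.81 ± 0.35 in RH6 and 5.54 ± 0.34 in RH5. Each SE was worked back from the F statistic of the fit and is used here as a description only. In RH6 it is smaller than counting error alone gives, as summed counts gave 113.9-fold with a counting interval of 61.8 to 237.8. Of all 19434 genes tested, 21.5% had all 4 naive libraries above both primed libraries, and APLNR ranked 45 by log2 fold change. In bulk RNA, more cells with the transcript and more transcript per cell cannot be told apart.

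**Figure D1:**
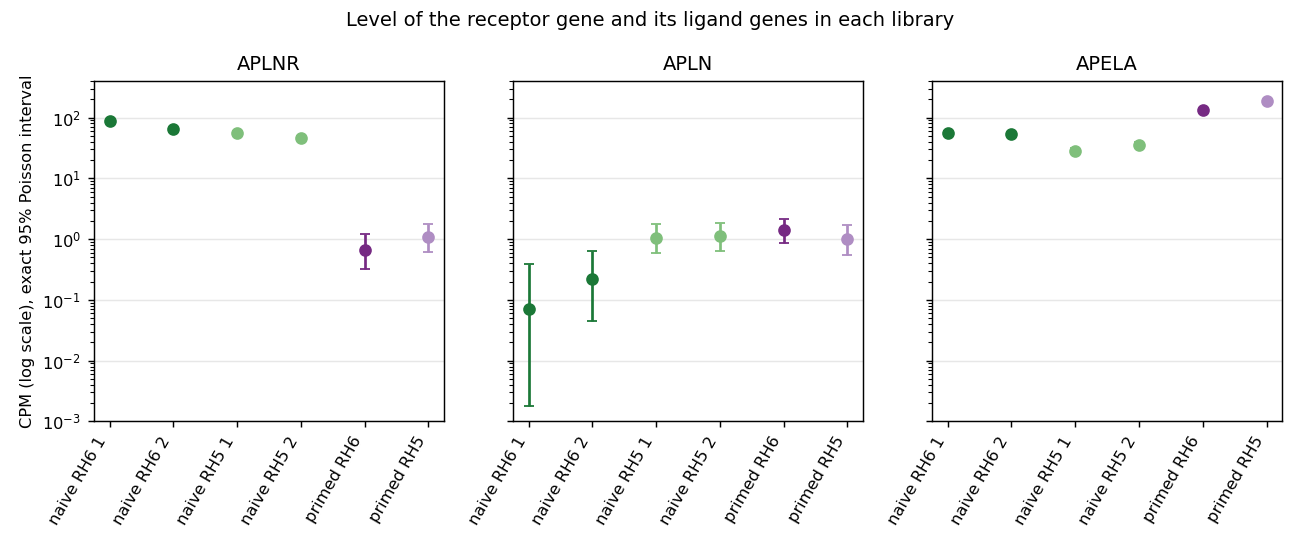
Level of APLNR, APLN and APELA in each of the 6 libraries, in CPM on a log axis, with exact 95% Poisson intervals from the counts. APLNR lies between 46.2 and 87.9 CPM in naive and at 0.671 and 1.09 CPM in primed libraries, APLN is lowest in the naive RH6 libraries, and APELA is highest in the primed libraries.

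APLN was at the edge of detection in every library. It had 1 and 3 counts in the naive RH6 libraries, 15 in each naive RH5 library, 21 in primed RH6 and 14 in primed RH5. In CPM these were 0.0701 and 0.221 in naive RH6, 1.06 and 1.12 in naive RH5, 1.41 in primed RH6 and 1.01 in primed RH5. The naive RH6 libraries stood below the other 4, which lay within each other's counting intervals, so the naive and primed groups overlapped. The log2 fold change from primed to naive was -3.22 ± 0.69 in RH6 and 0.10 ± 0.55 in RH5. By summed counts APLN was 9.81-fold higher in primed than in naive RH6 (counting interval 3.31 to 39.3), and the naive-to-primed ratio in RH5 was 1.07 (0.553 to 2.19). The value over both lines, -1.30 ± 0.73, averages these unlike effects, and became 0.11 without primed RH6 and -3.19 without primed RH5, each being the effect of the other line.

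APELA (ENSG00000248329), the gene of the other ligand, fell in naive cells of both lines. It stands in the deposited table under its older name RP11-366M4.3 as a processed transcript, and was matched by its Ensembl identifier. It had 802 and 717 counts in naive RH6 and 403 and 481 in naive RH5. Primed RH6 had 1970 and primed RH5 2566. These counts are 56.2, 52.8, 28.5 and 35.9 CPM in the naive libraries against 132.2 and 185.9 CPM in the primed ones, with no overlap, as for 22.9% of all genes tested that lay lower in every naive library. The log2 fold change was -1.94 ± 0.26 (edgeR adjusted p = 0.0026), against a background of 13.6% of genes called lower. It was -1.28 ± 0.14 in RH6 and -2.53 ± 0.14 in RH5 (edgeR adjusted p = 6.57e-05 and 9.14e-07, with 1 primed library in each line and its spread borrowed from the naive duplicates), where 33.6% and 33.5% of all genes were called, and -1.25 without primed RH5, which leaves the RH6 effect. By CPM, which leaves gene length aside, APLNR stood above APELA in every naive library and far below it in both primed ones.

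The promoters of both ligand genes, from 250 bases before to 50 bases after the RefSeq transcript start, are printed because the ligand genes differed from each other in level and in the samples where they were low. They are from build GRCh38.p14, 5′ to 3′ on the strand of the gene, and lie at chrX:129654907-129655206 on the minus strand for APLN and at chr4:164876928-164877227 on the plus strand for APELA. Capitals mark the core of the hypoxia response element, ACGTG or GCGTG on either strand, to which hypoxia-inducible factors bind and which was searched because APLN is known as a hypoxia-induced gene.
APLN: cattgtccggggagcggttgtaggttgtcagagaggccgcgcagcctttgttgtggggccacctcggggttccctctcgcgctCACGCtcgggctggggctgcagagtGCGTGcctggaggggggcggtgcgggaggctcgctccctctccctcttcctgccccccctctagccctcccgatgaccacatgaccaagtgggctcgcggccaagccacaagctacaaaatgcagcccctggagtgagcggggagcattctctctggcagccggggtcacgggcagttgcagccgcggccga
APELA: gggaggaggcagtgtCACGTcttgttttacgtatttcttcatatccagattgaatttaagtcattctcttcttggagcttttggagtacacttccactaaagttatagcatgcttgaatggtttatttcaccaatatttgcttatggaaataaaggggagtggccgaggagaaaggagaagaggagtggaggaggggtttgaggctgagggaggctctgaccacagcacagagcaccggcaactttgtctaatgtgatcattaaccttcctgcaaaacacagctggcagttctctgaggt
APLN has GCGTG at 142 bases before the start, and on the opposite strand in a match that begins 167 bases before it. APELA has ACGTG on the opposite strand, from 235 bases before the start. Of 35116 promoters of this length, 36.5% hold GCGTG and 21.4% hold ACGTG on either strand, so such matches are common. The same search found in neither promoter the SMAD site CAGAC (held by 45.3% of promoters), the T-box site TCACACC (3.45%), the FOXH1 site AATCCACA (0.817%), the TCF/LEF site CTTTGAT (2.62%), the NR5A2 site AAGGTCA (3.92%), the octamer ATGCAAAT (1.77%) or the TATA box TATAAA (11.5%). GC content was 68% in the APLN window and 45% in the APELA window.

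Per length of exon, the genes can be set side by side. Exon lengths were taken from GENCODE 29, 3738 bases for APLNR, 3205 for APLN and 3089 for APELA, and the annotation used for counting may differ. In naive libraries APLNR had 12.4 to 23.5 CPM per kilobase, APELA 9.23 to 18.2 and APLN 0.0219 to 0.35. In primed libraries APELA had 42.8 and 60.2, APLN 0.44 and 0.316 and APLNR 0.179 and 0.291. The level of APLNR was 1.01 to 1.62 times that of APELA in naive libraries, and their ranges over the 4 libraries overlapped. In primed RH6 and primed RH5 the level of APELA was 238.4 and 207 times that of APLNR. APLN was below APELA in every library.

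Naive RH6 and naive RH5 could be compared with duplicates on both sides, in a contrast that did not enter the choice of the genes. Line and passage cannot be told apart in it, since both RH6 libraries were at passage 10 and both RH5 libraries at passage 17. APLNR was higher in naive RH6, at a mean of 76.1 CPM against 51.0 CPM. The log2 difference was 0.58 ± 0.15 (edgeR adjusted p = 0.0203), in a comparison that called 25.5% of all genes. The lower RH6 library, at 64.3 CPM, was nearer to the higher RH5 library, at 55.8 CPM, than to its own duplicate. Without naive RH6 replicate 1 the difference was 0.32 and was not called (edgeR adjusted p = 0.0949), and without naive RH5 replicate 2 it was 0.41 (edgeR adjusted p = 0.0516). APLN was lower in naive RH6, with 4 counts against 30, at a log2 difference of -2.85 ± 0.64 (edgeR adjusted p = 0.0087). By counts it was 7.59-fold higher in naive RH5, with a counting interval of 2.67 to 29.6. DESeq2 did not call it (adjusted p = 0.0780). APELA was higher in naive RH6, by 0.76 ± 0.12 (edgeR adjusted p = 0.0015), and its lower RH6 library, at 52.8 CPM, lay above its higher RH5 library, at 35.9 CPM.

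The difference of the naive-to-primed effect between the lines was tested as an interaction, which called 12.0% of all genes, 5.86% with a higher and 6.16% with a lower effect in RH6. The fit took the spread of the naive duplicates to hold for the single primed libraries too. For APLNR the effect was larger in RH6 by 1.27 ± 0.70 on the log2 scale and was not called (edgeR adjusted p = 0.288), and the 10 and 15 primed counts limit this value. For APLN the effect differed by -3.32 ± 0.89 (edgeR adjusted p = 0.0381), being negative in RH6 and near 0 in RH5. That call was lost without naive RH6 replicate 1, at -2.74 (edgeR adjusted p = 0.0780), and DESeq2 gave it no adjusted p. APELA differed by 1.25 ± 0.20 (edgeR adjusted p = 0.0033), with the larger fall in RH5.

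**Figure D2:**
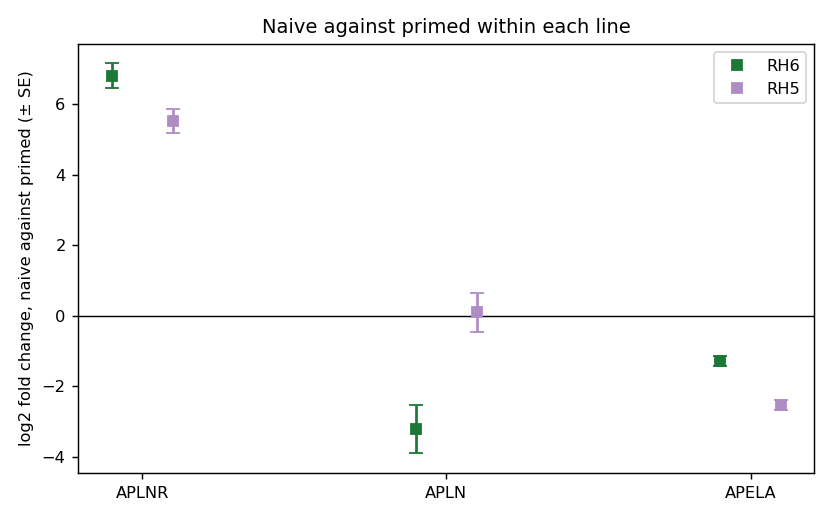
Log2 fold change of naive against primed cells within each line, with a standard error worked back from the F statistic, for APLNR, APLN and APELA. APLNR is at 6.81 in RH6 and 5.54 in RH5, APLN at -3.22 and 0.10, and APELA at -1.28 and -2.53.

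Enzymes that process or break down apelin moved in both directions. With APLN set aside, 8 genes of a list of ligands and their processing were tested, of which 3 rose and 2 fell in naive cells. Their median log2 fold change was 0.30, against -0.01 over all genes tested, of which 12.1% rose. PCSK7, a proprotein convertase, rose by 1.38 ± 0.10 (edgeR adjusted p = 2.45e-04), from 44.5 and 45.8 CPM in primed to between 113.6 and 121.5 CPM in naive libraries. The convertase FURIN, which cleaves proapelin, rose by 0.68 ± 0.12 (edgeR adjusted p = 0.0068). PCSK6, a related convertase, rose by 1.22 ± 0.26 (edgeR adjusted p = 0.0155), or 0.80 without primed RH5, a call lost without naive RH5 replicate 1 (edgeR adjusted p = 0.0580) or 2 (edgeR adjusted p = 0.0509). Beside APELA, the gene that fell was KLKB1, the plasma kallikrein gene, at -1.90 ± 0.47 (edgeR adjusted p = 0.0260). The KLKB1 call was lost without any 1 of the 4 naive libraries, with edgeR adjusted p-values of 0.0523 to 0.0877, and the value was -0.68 without primed RH5 and -3.03 without primed RH6. MME, the neprilysin gene, which cleaves apelin, stood at -0.08 ± 0.17 and was not called.

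Among genes of receptor coupling, the arrestins went opposite ways. ARRB1, a beta-arrestin that binds activated receptors, rose by 2.92 ± 0.29 (edgeR adjusted p = 8.86e-04), at 105 to 135 CPM in naive libraries against 10.5 and 23.0 CPM in primed RH6 and primed RH5. ARRB2, the other beta-arrestin, fell, at -1.43 ± 0.22 (edgeR adjusted p = 0.0048), with 9.86 to 14.9 CPM against 42.1 and 28.7 CPM. Of the 20 genes of G proteins, arrestins and kinases, all tested, 4 rose and 3 fell, with a median of 0.15, where 12.1% and 13.6% of all genes tested rose and fell. The inhibitory subunit genes GNAI1, GNAI2 and GNAI3, through which APLNR signals, were not called, at -0.12, -0.03 and 0.18. GNAO1, a subunit gene of the same class, fell, at -2.08 ± 0.26 (edgeR adjusted p = 0.0019). RGS4 and RGS5, which speed the shut-off of G proteins, rose by 2.04 ± 0.37 and 1.54 ± 0.28 (edgeR adjusted p = 0.0082 and 0.0087), and RGS5 was at 0.98 without primed RH6. The RGS4 call was lost without the line term (edgeR adjusted p = 0.1124). After the duplicates were added together within each line, which leaves fewer samples, RGS4 and RGS5 were at 2.05 and 1.60 and were not called. The other genes called were GNB1, at 0.37, and ADRBK2, a receptor kinase gene, at -0.66, both picked with their values in view.

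Of 16 genes known to act downstream of apelin, 4 rose and 5 fell, with a median of -0.16. KLF2, a flow-responsive factor induced through MEF2 in endothelium, rose by 2.02 ± 0.43 (edgeR adjusted p = 0.0148) from 8 and 6 counts in primed to between 19 and 41 in naive libraries. Its call was lost without naive RH5 replicate 1 (edgeR adjusted p = 0.0505) or primed RH5 (edgeR adjusted p = 0.0678), where its value was 1.36. NOS3, the endothelial nitric oxide synthase gene, was at 1.25 ± 0.37 (edgeR adjusted p = 0.0474), a call lost without any 1 of 5 of the libraries, all but primed RH6, with edgeR adjusted p-values of 0.0527 to 0.1179, and its value was 0.63 without primed RH5 and 2.05 without primed RH6. HDAC5, a repressor of MEF2, fell, at -1.04 ± 0.12, and FGFR1 at -0.86 ± 0.13 (edgeR adjusted p = 0.0013 and 0.0039). Without any 1 naive library, 1 or 2 genes of this list rose and 3 to 5 fell, and without primed RH5, 1 rose.

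Of receptors related to APLNR, several were at or near 0 and others were well expressed. GPR15 and GPR25, among its closest relatives in sequence, had 1 count each over all 6 libraries, and the angiotensin receptor gene AGTR1 had 0 to 3 counts per library. AGTR2, the other angiotensin receptor gene, had 23 counts in primed RH6 and 7 in primed RH5 against 2, 2, 0 and 0 in naive libraries, and was 14.5-fold higher in primed cells by summed counts (counting interval 5.1 to 56.5). Of 15 genes of this list 7 were tested, of which 1 rose and 1 fell, with a median of 0.17, where 12.1% and 13.6% of all genes tested rose and fell. Without primed RH6, 2 rose and 3 fell, and without primed RH5, 3 rose and 3 fell. BDKRB2, a bradykinin receptor gene, rose by 3.74 ± 0.24 (edgeR adjusted p = 1.61e-04), with 15.4 and 15.1 CPM in naive RH6, 5.02 and 5.08 in naive RH5, 1.14 in primed RH6 and 0.362 in primed RH5. CXCR4, the CXCL12 receptor gene, fell, at -2.44 ± 0.44 (edgeR adjusted p = 0.0085), and was at -1.20 without primed RH5, which held 28.6 CPM against 8.25 CPM in primed RH6. EDNRB, an endothelin receptor gene, was at 76.8 and 63.1 CPM in naive RH6, 7.21 and 8.44 in naive RH5, 13.4 in primed RH6 and 21.2 in primed RH5, and its effect differed between the lines by 3.82 (edgeR adjusted p = 1.74e-05). ACKR3, the other CXCL12 receptor gene, was at 3.56 to 15.3 CPM and EDNRA at 2.72 to 13.5 CPM, and none of these 3 genes was called over both lines.

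Because apelin is induced by low oxygen, a list of hypoxia response genes was examined. Of 16 tested, 8 rose and 1 fell, with a median log2 fold change of 0.58. Of all genes tested, 12.1% rose and 13.6% fell. EPAS1, the gene of HIF-2 alpha, rose by 1.49 ± 0.22 (edgeR adjusted p = 0.0037), NDRG1 by 1.14 ± 0.26 (edgeR adjusted p = 0.0191) and BNIP3, a mitophagy receptor gene, by 1.02 ± 0.16 (edgeR adjusted p = 0.0048). EGLN3, an oxygen-sensing hydroxylase gene, fell, at -1.15 ± 0.10 (edgeR adjusted p = 5.83e-04). VEGFA and ADM were not called, at -0.69 ± 0.21 and -0.03 ± 0.11. Without naive RH6 replicate 1 or 2, 4 genes of the list rose, and without naive RH5 replicate 1 or 2, 5 did. After the duplicates were added together within each line, which leaves fewer samples, 0 genes of the list rose. EPAS1, BNIP3 and NDRG1 were then at 1.51, 1.05 and 1.17 and were not called. The NDRG1 call was lost without naive RH6 replicate 1 (edgeR adjusted p = 0.0531) or 2 (edgeR adjusted p = 0.0596), and its value was 0.75 without primed RH6.

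Genes of the primitive streak and nascent mesoderm, where APLNR is expressed in embryos, were widely higher in naive cells. Of 22 tested, 11 rose and 0 fell, and the median was 2.46 over both lines, 2.56 within RH6 and 2.65 within RH5. HAND1, a mesoderm and trophoblast factor, rose by 6.67 ± 0.23 (edgeR adjusted p = 4.18e-05) and T, the brachyury gene of the streak, by 5.34 ± 0.47 (edgeR adjusted p = 5.43e-04). CDX1, a caudal factor gene, had 558 counts over the naive and 2 over the primed libraries, a 144.7-fold difference by depth-scaled sums (counting interval 39.9 to 1197.4). CDX2 was 53.2-fold higher, from 308 and 3 counts (interval 18.0 to 259.5). PDGFRA and KDR, receptors also used as surface markers of mesoderm, were not called. PDGFRA was at 13 to 22.9 CPM in naive libraries against 18.4 and 10.6 CPM in primed RH6 and primed RH5. KDR was at 250.8 and 253.4 CPM in naive RH6, 93.3 and 98.4 in naive RH5, 75.1 in primed RH6 and 229.5 in primed RH5, and its effect was 1.75 in RH6 and -1.26 in RH5 (edgeR adjusted p of the difference = 5.91e-06). The summed level of the 25 genes was 670.4 to 1045.4 CPM in naive libraries, 158.4 in primed RH6 and 350.6 in primed RH5. Without primed RH5, 17 of the genes rose and 1 fell, without primed RH6, 3 fell, and without naive RH5 replicate 2, 1 fell. MESP1, a factor of nascent mesoderm, had 6 to 10 counts in naive and 1 in each primed library and was not tested, and TBX6 was at -1.22 ± 0.42 and not called.

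Markers of other cells that can carry APLNR were checked in the same way. PECAM1, a defining endothelial gene, was listed at 0 in every library, but so was CD24, a gene that pluripotent cells are known to express, so a listed 0 does not show absence. EMCN had 2 counts in all and CLDN5 13. Of 9 tested endothelial and blood genes 4 rose and 3 fell, with a median of 0.64, and the 3 that fell were TIE1, ERG and VWF, at -3.79, -3.74 and -3.26, with 0 to 20 counts each per naive library. TIE1 was 14.9-fold lower in naive cells by summed counts (counting interval 5.28 to 58.3), and its call was lost without primed RH5, at -2.61 (edgeR adjusted p = 0.0508), and was at -7.09 without primed RH6. The summed level of this list was 25.5 to 42.4 CPM in naive and 21.3 to 26.2 CPM in primed libraries. CDH5, the VE-cadherin gene, rose by 1.69 ± 0.46 (edgeR adjusted p = 0.0371), with 9 to 29 counts in naive and 4 and 6 in primed libraries. RUNX1, a blood factor gene, rose by 1.59 ± 0.28 (edgeR adjusted p = 0.0076). TEK, the angiopoietin receptor gene, rose by 0.99 ± 0.29 (edgeR adjusted p = 0.0448), at 1.41 in RH6 and 0.52 in RH5. Its naive RH5 libraries, at 3.18 and 2.61 CPM, overlapped primed RH6, at 2.95 CPM. GATA2, the other that rose, was at 2.29 ± 0.59 (edgeR adjusted p = 0.0302), with its call lost without naive RH6 replicate 1 (edgeR adjusted p = 0.0874) or either naive RH5 library (edgeR adjusted p = 0.0738 and 0.0668), and its value was 1.23 without primed RH5 and 3.88 without primed RH6. Without any 1 naive library, 1 or 2 genes of the list rose.

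Of 11 fibroblast genes tested, 7 rose and 2 fell in naive cells, with a median of 2.12. The summed level of the list was 573.8 to 1155.5 CPM in naive against 312.1 and 312.4 CPM in primed libraries. Feeder cells were mouse fibroblasts in both states, while the builds named for processing are human, so these counts do not measure feeder content directly. COL3A1 rose by 4.33 ± 0.24 and COL5A1 by 2.90 ± 0.18, LUM by 2.74 ± 0.40 and POSTN by 2.49 ± 0.24 (edgeR adjusted p = 1.02e-04 to 0.0037). The 2 that fell were the fibroblast markers THY1, which primed stem cells are also known to express, at -1.37 ± 0.32, and PRRX1, at -1.52 ± 0.23 (edgeR adjusted p = 0.0220 and 0.0045), and 1 fell without naive RH6 replicate 1 or either naive RH5 library. DCN, a defining fibroblast gene, had 0 to 8 counts per library and FAP 0 to 7. Cardiac and smooth muscle genes rose in 4 of 10 and fell in 0, with a median of 1.19. Those that rose were ACTA2, at 3.16 ± 0.31, ACTC1, at 2.79 ± 0.34, TAGLN and CNN1. The summed level of the list was 516.1 to 960.2 CPM in naive against 143.4 and 162.2 CPM in primed libraries, most of it ACTC1 and TAGLN. Not called were MYL7 at 2.00, MYH6 at 1.39, NKX2-5 at -0.01, TNNT2 at -0.07, MYH11 at -0.12 and DES at -0.94. MYH7 and TBX5 had 1 to 5 counts per library. Trophectoderm and amnion genes rose in 6 of 12 and fell in 1 (median 1.32), among them the keratin genes KRT8, at 1.85 ± 0.23, and KRT18, at 1.76 ± 0.21. The gene that fell was KRT7, another keratin and a trophoblast marker, at -1.11 ± 0.22 (edgeR adjusted p = 0.0116), and 3 genes fell without primed RH5 and 0 without naive RH6 replicate 2. The summed level of the list was 2540.2 to 2829.1 CPM in naive against 593.3 and 1047.4 CPM in primed RH6 and primed RH5. Most of this sum was KRT8 and KRT18, so it says little of the other genes of the list. KRT8 alone was at 1999.9 to 2209.5 CPM in naive libraries and at 392.4 and 815.4 CPM in primed RH6 and primed RH5. The part of these cell types in the level of APLNR was not tested.

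**Figure D3:**
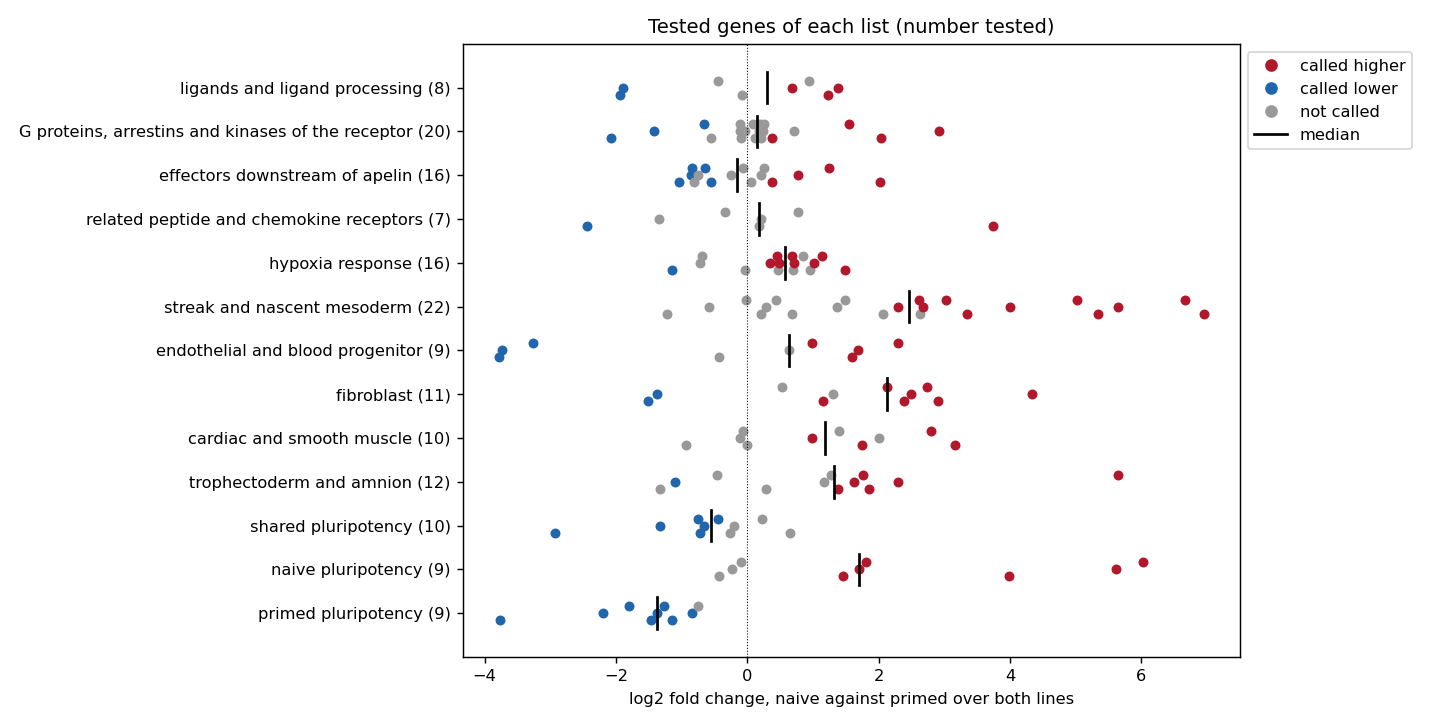
Log2 fold change of naive against primed cells for each tested gene of 13 lists, coloured by the edgeR call, with the median as a bar and the number tested in brackets; APLN is left out. The streak and mesoderm list has a median of 2.46, with 11 genes called higher and 0 lower, while the list of receptor coupling has a median of 0.15.

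The genes most like APLNR were found by the root mean square difference of log2 CPM over the 6 libraries, after each gene was centred on its mean. The nearest was AQP1, a water channel gene, at a difference of 0.28, followed by DNMT3L, a cofactor of DNA methylation in germ cells and naive cells, at 0.41, and T at 0.47. KRT16P3, a keratin pseudogene, followed at 0.51, HAND1 at 0.54 and AC007682.1 at 0.56. AQP1 had 326, 275, 196 and 251 counts in naive libraries and 2 in each primed library, and was 135.8-fold higher by summed counts (counting interval 52.9 to 499.5). KRT16P3 had 310 counts in naive and 0 in primed libraries, at least 53.6-fold higher, though reads of pseudogenes can come from near-identical copies. Pearson's r with APLNR was 0.987 to 0.996 for the 6 genes, a description in which the gap between naive and primed libraries carries most of the spread. The choice by likeness to APLNR fixes a large naive-to-primed difference for each of the 6, so their folds are a description too.

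**Figure D4:**
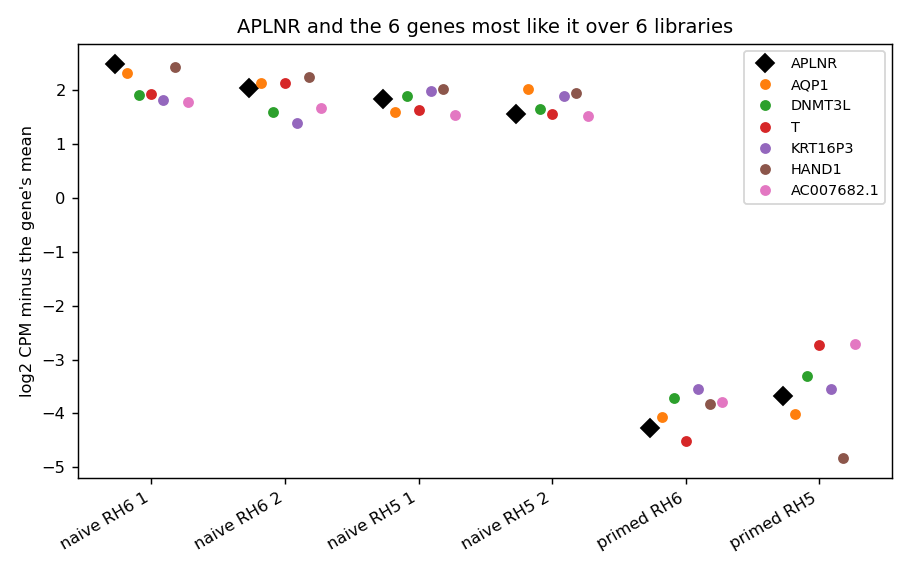
Log2 CPM of APLNR (black diamonds) and of the 6 genes most like it, each minus its own mean over the 6 libraries. All 7 genes are above their mean in the 4 naive libraries and below it in both primed ones.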

How the data were processed

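RNA of 6 libraries was sequenced with a stranded total RNA kit, per the labels' protocols. Builds GRCh37.p5 and hg19, STAR 2.4.0a, featureCounts 1.4.5-p1 and DESeq2 are named, without their roles, per the submitters' processing notes. The values used were raw gene counts as the authors deposited them. The labels call the molecule polyA RNA. Which annotation was counted, and whether by strand, is not given in the sources used here. In all, 0 other genes of GENCODE 29 overlap APLNR, APLN or APELA.

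Counts were tested with edgeR 4.0.16 in R 4.3.3 (quasi-likelihood F-test, TMM, filterByExpr with a minimum count of 10 and total of 15, Benjamini-Hochberg over 19434 genes, two-sided). Naive against primed used all 6 libraries with the line as covariate (3 residual degrees of freedom). Contrasts within a line, between the naive lines and of the interaction came from a fit with 1 mean per group (2 residual degrees of freedom). The SE of a log2 fold change is its absolute value divided by the square root of its F statistic. It can be smaller than counting error where counts are low. The scripts were tested on simulated data. TMM factors were 0.964 to 1.029. Naive duplicates differed by a chi-square per gene of 9.22 in RH6 and 5.76 in RH5, above the value of about 1 that counting noise gives, and were kept apart.

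The genes and the 13 lists were chosen with earlier results of these data known. Named in each list were up to 4 called genes with the largest change, and APELA, AGTR1, AGTR2, GPR15 and GPR25 whatever their result. Other list members named were chosen after their values were seen. APELA was matched by identifier in a table of gene names. Promoters are from RefSeq, which matched APLN and APELA, 2 of the 3 genes. Alternatives were other scalings (RLE, upper quartile), DESeq2 1.42.0, limma-voom (limma 3.58.1), no filter, no line term, summed naive libraries, a replicate block and leaving out each library. From the list of ligand processing, 1 gene is not reported here.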

Additional observations from a re-analysis of the deposited data

Results flagged for a closer look

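The naive-to-primed effect differed between the lines, by the interaction test in edgeR, for 27 genes named here, leaving aside those picked for their likeness to APLN or APELA. That test called 12.0% of all genes. Most genes named here were picked for a large state effect or with their values in view, so their number cannot be set against that share. The difference, RH6 minus RH5 on the log2 scale, was -3.32 for APLN and 1.25 for APELA. In ligand processing and receptor coupling it was 2.32 for KLKB1, 1.19 for ARRB1, -0.90 for ARRB2, -1.13 for GNAO1 and 1.23 for RGS5. Among related receptors it was 2.20 for CXCR4, 2.17 for ACKR3, -2.12 for EDNRA and 3.82 for EDNRB, and in the hypoxia list 0.61 for BNIP3 and 0.96 for VEGFA. In the lists of other cell types it was 2.47 for T, 3.01 for KDR, -2.67 for GATA2, 0.64 for COL5A1, 1.51 for THY1, 1.39 for ACTC1, 0.56 for TAGLN, 0.97 for KRT8 and 0.85 for KRT18. In the pluripotency lists it was 0.59 for SALL4 and 1.29 for OTX2. Among neighbours it was -1.93 for LRRC55 beside APLNR, and -1.03 for SMARCA1 and -0.77 for OCRL beside APLN. APLNR was not called, at 1.27.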

How the results depend on the processing

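Replicates shared a number in the labels but nothing ties same-numbered libraries together, and their deviations correlated at 0.14 over 19434 genes. With the replicate block the difference of the state effect called 4916 genes in place of 2337. With that replicate block APLNR kept its sign and its side of the threshold, at 0.57 between the naive lines and 1.26 for the interaction, as did APLN, at -2.86 and -3.33. DESeq2 called 4036 genes in RH6 (6528 with edgeR), 3936 in RH5 (6506), 2856 between the naive lines (4952) and 1305 for the interaction (2337), and APLN between the naive lines was at -2.92 and not called. With the naive duplicates summed per line, which leaves fewer samples, 1127 genes were called in place of 4996. In that fit 0 genes rose in the lists of hypoxia, of apelin effectors, and of endothelial and blood genes. The cause of the other shifts was not tested. With limma-voom the naive-to-primed value of APLN was -0.85 in place of -1.30.

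Leaving out 1 library at a time gave 2961 to 6704 genes for naive against primed (2961 without naive RH5 replicate 1 and 3020 without naive RH6 replicate 2), 6417 to 6993 in RH6, 5638 to 7624 in RH5, 3858 to 5121 between the naive lines and 2421 to 3131 for the interaction. APLNR was then at 5.55 to 6.83 for naive against primed, 0.32 to 0.79 between the naive lines and 1.01 to 1.48 for the interaction. APLN was at -3.19 to 0.11, -3.80 to -2.27 and -4.27 to -2.74. Of 51 other genes followed, 32 kept their call in every alternative that gave a value, 17 lost it with the naive libraries summed, and 0 turned direction. Most had been picked for large called changes in these same libraries, which made a turn unlikely in advance. APELA stayed called. These genes were added to the alternatives after seeing the data. The low counts of APLN, and of APLNR in primed cells, limit every ratio that rests on them.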

Other observations

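Genes chosen for likeness to APLN had its pattern, low in naive RH6 alone, which that choice fixes. They had 81 to 582 counts over all libraries against 69 for APLN. The 6 most like APLN were ZNF157, SLC25A27, SSPO, LRFN1, FRMD3 and GPR173, at root mean square differences of 0.15 to 0.22. SLC25A27, a mitochondrial carrier gene, had 18 and 22 counts in naive RH6, 94 and 90 in naive RH5, 103 in primed RH6 and 93 in primed RH5. GPR173, an orphan receptor gene, had 26 and 29, then 145 and 132, then 152 and 98. APELA was most like TTC9 and ZDHHC23, a palmitoyltransferase gene, both at 0.09, and like RABGAP1L, SNTB1, CASC15 and UGT8 at 0.16 to 0.19. Their log2 fold changes from primed to naive were -2.23 to -1.77, a pattern that the choice by likeness fixes.

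Genes next to APLNR, by their order in RefSeq, were not called in naive against primed. LRRC55 had 60, 27, 124 and 137 counts in naive libraries and 65 and 48 in primed ones (log2 fold change 0.43 ± 0.49, edgeR adjusted p = 0.5742). TNKS1BP1 and SSRP1, on the other side, were at 0.17 ± 0.13 and 0.32 ± 0.11 (edgeR adjusted p = 0.3829 and 0.0814). Next to APLN, OCRL, a phosphatase gene, and SMARCA1, a chromatin remodeller gene, were not called in naive against primed (0.45 ± 0.19 and 0.15 ± 0.22, edgeR adjusted p = 0.1252 and 0.6501). Both were lower in naive RH6 than in naive RH5, at -0.98 and -1.01 (edgeR adjusted p = 1.66e-04 and 3.85e-05), as APLN was. LRRC55, next to APLNR, was lower in naive RH6 too, at -1.61 (edgeR adjusted p = 0.0030), where APLNR was higher, and was higher in naive than in primed RH5, at 1.45 (edgeR adjusted p = 0.0132). Of the 18 neighbours sought, 3 on each side of APLNR, APLN and APELA, 11 were in the count table.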
